A study of Mus musculus with 36 samples.

Results

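Cytosolic ribosomal proteins are the protein parts of the ribosome that translates nuclear-encoded mRNA. Their genes were taken from the array annotation as every symbol that starts with Rpl or Rps and a digit, plus Rplp0 and Rpsa, without the Rps6k kinases and Rpl29. The rule gave 52 symbols. Of these, 50 had a measured probe, and 48 had one above background on at least 4 of the 36 arrays and were tested, among 10533 features tested in all. Rpl21 and Rpl27a had only placeholder values, and Rpl17 and Rpsa were above background on 0 arrays. The 48 tested genes comprised 26 proteins of the large subunit, 15 of the small subunit (41 core proteins in all), 6 paralogs (Rpl22l1, Rpl36al, Rpl39l, Rpl3l, Rps27l and Rpl7l1) and Rps19bp1. The last, the gene of a nucleolar protein that binds RPS19 and regulates the deacetylase SIRT1, met the rule by its symbol but encodes no ribosomal protein.

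Total RNA of mouse induced pluripotent stem (iPS) cell clones and embryonic stem (ES) cells was hybridised to one-colour Illumina bead arrays. The iPS clones came from mouse embryonic fibroblasts (MEFs) that overexpressed Oct4, Sox2, Klf4 and Tbx3 (OSKT, 11 clones), Oct4, Sox2 and Esrrb (OSE, 8 clones) or Oct4, Sox2 and Klf4 (OSK, 11 clones), so that all 3 sets share Oct4 and Sox2. The ES cells were D3 in MEF medium (2 replicates) and R1 in mESC medium (4 replicates), so line and medium cannot be told apart between them. The labels name neither the strain or sex of the fibroblasts nor the passage of the clones, nor whether a clone still expressed its transgenes.

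All 8 measured markers of pluripotent cells were above background on every array. Their signals summed to 20222 to 30826 intensity units in OSKT, 17920 to 20562 in OSE and 20125 to 27191 in OSK clones. These sums were 26898 to 28421 in D3 and 32929 to 34630 in R1 samples, and their part in the results was not tested. Single markers differed in both directions. Their log2 differences from R1 ran from -5.20 to 1.28 in OSKT, -5.11 to 1.20 in OSE and -5.06 to 1.26 in OSK clones. Signals of 13 fibroblast markers summed to 11713 to 28751 intensity units in OSKT, 18362 to 38707 in OSE, 11678 to 31772 in OSK, 6553 to 7005 in D3 and 10694 to 10983 in R1 samples. The sums were higher in clones 1 to 4 than in clones 5 to 11 of OSKT and OSK, and they entered the fit as a covariate in an alternative. The sums of 7 trophoblast markers ran from 4356 to 22234 units in OSKT, 7311 to 20138 in OSE, 9461 to 22442 in OSK, 1221 to 1294 in D3 and 857.2 to 931.0 in R1 samples, and their part in the results was not tested. In such bulk samples fewer cells of a type and less RNA per cell cannot be told apart. Between 8675 and 9720 probes stood above background on an array, and arrays had a 75th percentile of signal between 337.3 and 1057 intensity units. Among pairs of clones within a set, 6 of 55 in OSKT, 3 of 28 in OSE and 7 of 55 in OSK differed no more than replicates of R1 did, so the p-values measure the spread between these samples. The number of arrays limits the precision.

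A ribosome holds a single copy of almost every ribosomal protein, and cells keep the supply of the proteins in balance. In mammals their mRNAs begin with a run of pyrimidines, the terminal oligopyrimidine (TOP) tract, through which mTOR signalling and Larp1 control their translation. In pluripotent cells ribosome production is high, and unassembled ribosomal proteins can bind Mdm2, which stabilises p53.

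RefSeq promoters of build GRCm38.p6 were matched for 43 members, 36 of them core proteins. Sequences are shown for 5 core genes and 2 paralogs on which the comparisons below turn. Each runs 5′ to 3′ from 60 bases before the annotated start to 20 bases from it, and capitals mark the longest run of C or T that overlaps the window from 5 bases before to 10 bases after that start. On the plus strand lie Rpl14 (chr9:120571457-120571536), Rps19 (chr7:24884532-24884611), Rpl22 (chr4:152325666-152325745), Rpl22l1 (chr3:28805448-28805527) and Rpl39l (chr16:10170168-10170247). On the minus strand lie Rps27 (chr3:90213629-90213708) and Rps15a (chr7:118116128-118116207).
Rpl14: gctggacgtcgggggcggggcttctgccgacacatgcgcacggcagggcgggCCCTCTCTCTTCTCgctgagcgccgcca
Rps27: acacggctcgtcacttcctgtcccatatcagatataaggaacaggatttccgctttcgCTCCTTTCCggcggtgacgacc
Rps15a: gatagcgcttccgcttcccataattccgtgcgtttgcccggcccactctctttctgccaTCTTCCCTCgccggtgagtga
Rps19: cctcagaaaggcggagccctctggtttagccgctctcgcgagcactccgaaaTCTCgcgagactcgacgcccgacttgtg
Rpl22: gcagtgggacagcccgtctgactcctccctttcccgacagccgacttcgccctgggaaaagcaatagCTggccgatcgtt
Rpl22l1: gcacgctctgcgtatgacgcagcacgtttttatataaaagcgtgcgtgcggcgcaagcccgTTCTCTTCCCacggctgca
Rpl39l: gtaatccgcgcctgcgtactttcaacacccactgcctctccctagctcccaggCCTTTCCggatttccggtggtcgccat

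The run was 14 bases long in Rpl14 and 4 in Rps19 at the RefSeq start, which may lie some bases from the start used in these cells. A run of at least 8 C or T in that window was present in 13 of 36 core promoters (36.1%), in 7 of 69 promoters of mitochondrial ribosomal proteins (10.1%) and in 11.0% of 17492 promoters of protein-coding genes. The letters CCGGAAG, a motif of ETS factors, stood on either strand of 12 core promoters (33.3%), of 36.2% of the mitochondrial set and of 11.9% of all, over 250 bases before to 50 after the start. AAGATGG, a motif of YY1, stood in 5 (13.9%), in 18.8% of the mitochondrial set and in 6.37% of all. Both motifs were thus at least as frequent in the mitochondrial set as in the cytosolic one. Of 12 tested core genes with the run, 1 was higher and 5 were lower in OSKT clones (median log2 difference -0.09), and of 22 with a shorter run, 2 were higher and 11 lower (median -0.09); the groups were not tested against each other.

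The probes lay over the whole range of the arrays. Rpl41, the gene of the smallest ribosomal protein, had a mean signal of 96.6% of each array's brightest probe, and Rps15a had one of 0.097%. These shares say where on the scale a probe is read and are not set against each other as levels of genes. Signals of 22 members were at or above 50% of the brightest probe, among 67 features of the array that were, and the brightest probe itself read 68518 to 71839 intensity units on every array. Of the 48, 45 were above background on all 36 arrays, and the others were Rps15a (12 arrays), Rpl39l (32) and Rpl36al (33).

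Differences between the arrays were small for the bright probes and larger for the dim ones, as the map of all 48 genes shows. Across the 36 arrays the standard deviation of the normalized log2 signal was least for Rpl41 (0.03), Rpl38 (0.05), Rps14 (0.06), Rps9 (0.07) and Rpl13 (0.07). These probes read at 79.0% to 96.6% of the brightest probe, near the upper end of the range, and the part of that limit in their small spread was not tested. It was greatest for 3 paralogs and 2 core genes, namely Rpl39l (0.80), Rpl36al (0.76), Rps15a (0.71), Rps19 (0.56) and Rpl3l (0.52). Rpl38 is known in mouse for its part in translating Hox mRNAs, RPS14 for the 5q- syndrome in human and Rpl39l for its expression in testis.

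**Figure D1:**
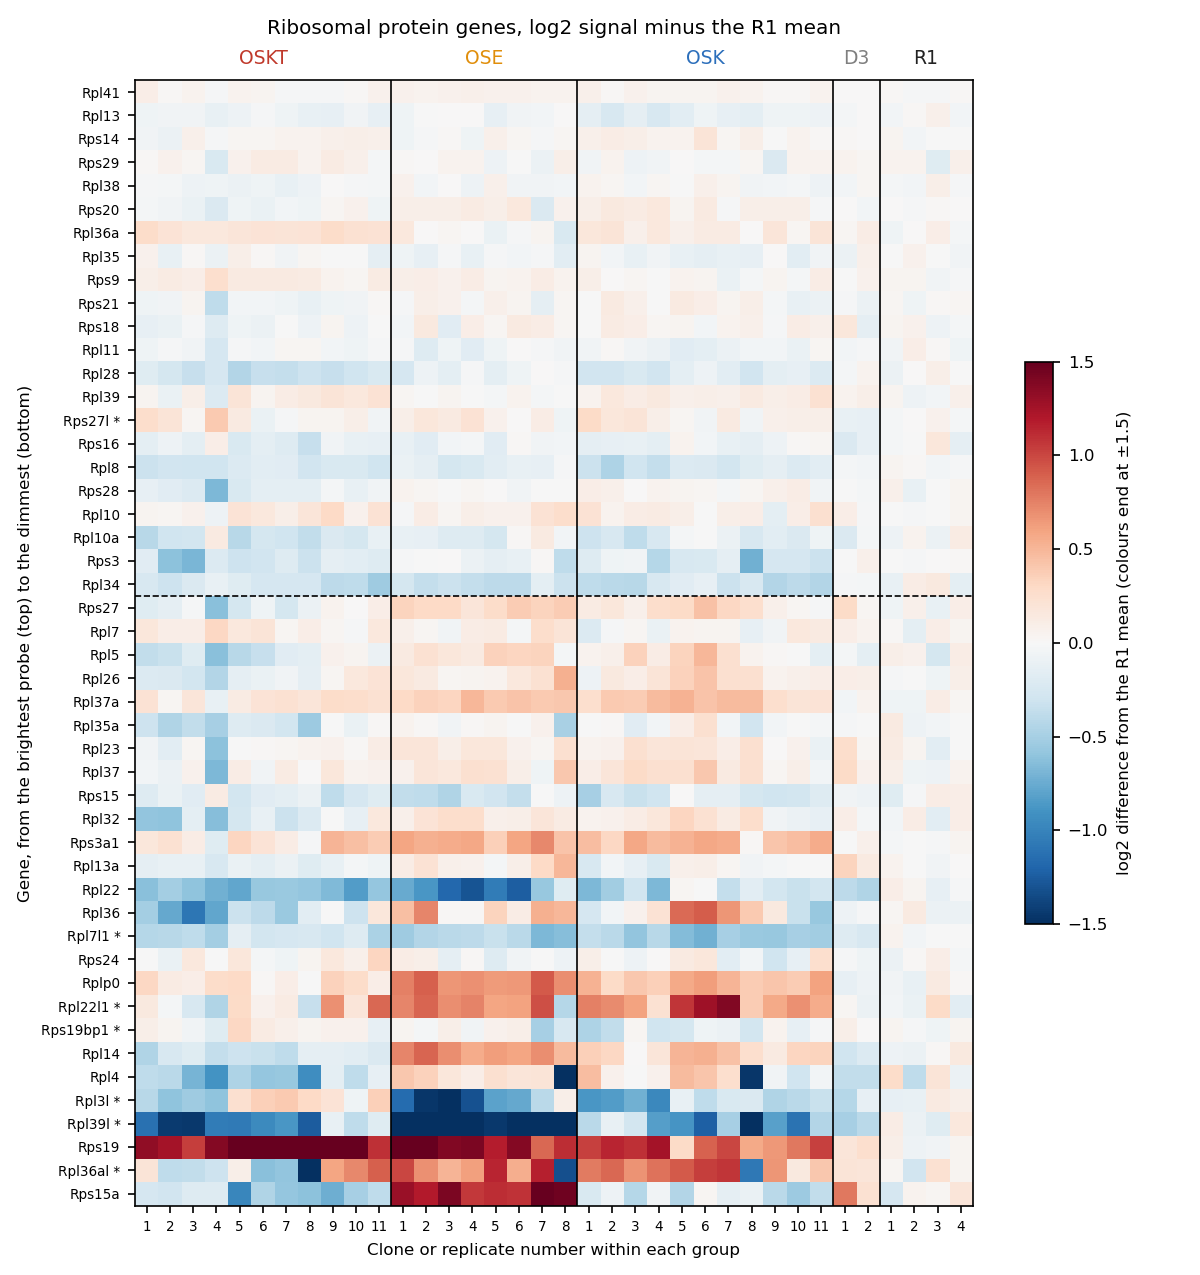
Normalized log2 signal minus the mean of the R1 arrays for the 48 tested genes (rows, from the brightest probe at the top to the dimmest) on the 36 arrays (columns, by group and clone or replicate number), with colours ending at ±1.5, a dashed line at 50% of the brightest probe and asterisks for genes that encode no core protein. Rps19 is higher on every iPS array, Rps15a on the OSE arrays, and Rpl22 and Rpl7l1 are lower on nearly all iPS arrays.

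OSKT clones were set against OSK clones to ask what went with the addition of Tbx3. More ribosomal protein genes fell than rose. Called at a Benjamini-Hochberg adjusted p under 0.05 in limma, 7 of the 48 rose and 21 fell in OSKT clones, with a median log2 difference of -0.07. Among all 10533 features 19.5% rose and 16% fell (35.5% in either direction), with a median of 0.00. By subunit, there were 2 higher and 13 lower of 26 large and 2 higher and 6 lower of 15 small subunit proteins. With near-identical arrays averaged, 2 rose and 8 fell, against 13.0% of all features called in either direction, and with arrays scaled to a common median 6 rose and 9 fell, against 2199 features that rose and 1037 that fell among all.

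The measured fall lay mostly among core genes whose probes were under 50% of the brightest, a division made after the values were seen. Of these 20, 2 were higher and 14 lower in OSKT clones (median log2 difference -0.24). Of the 22 members at or above 50%, 2 were higher and 5 lower (median -0.03), and of the other 45 features in that range, 6 were higher and 6 lower. Near the upper end of the range, the scale and quantile normalization limit how far a value can move. The part of that limit in the smaller differences of the brighter members was not tested, so they do not show a smaller change of those genes. Among the 20, the counts were 2 higher and 12 lower within clones 1 to 4 (median -0.35), and 1 higher and 10 lower within clones 5 to 11 (median -0.20), where 24.1% and 34.6% of all features were called. They were 1 higher and 6 lower with near-identical arrays averaged (median -0.23), and 3 higher and 7 lower with a common median (median -0.18). Of all features 13.0% and 30.7% were called in these settings. With the fibroblast signal as a covariate they were 2 higher and 14 lower, and with the 75th percentile of the signal 2 higher and 15 lower. In these 2 fits 43.8% and 39.6% of all features were called.

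**Figure D2:**
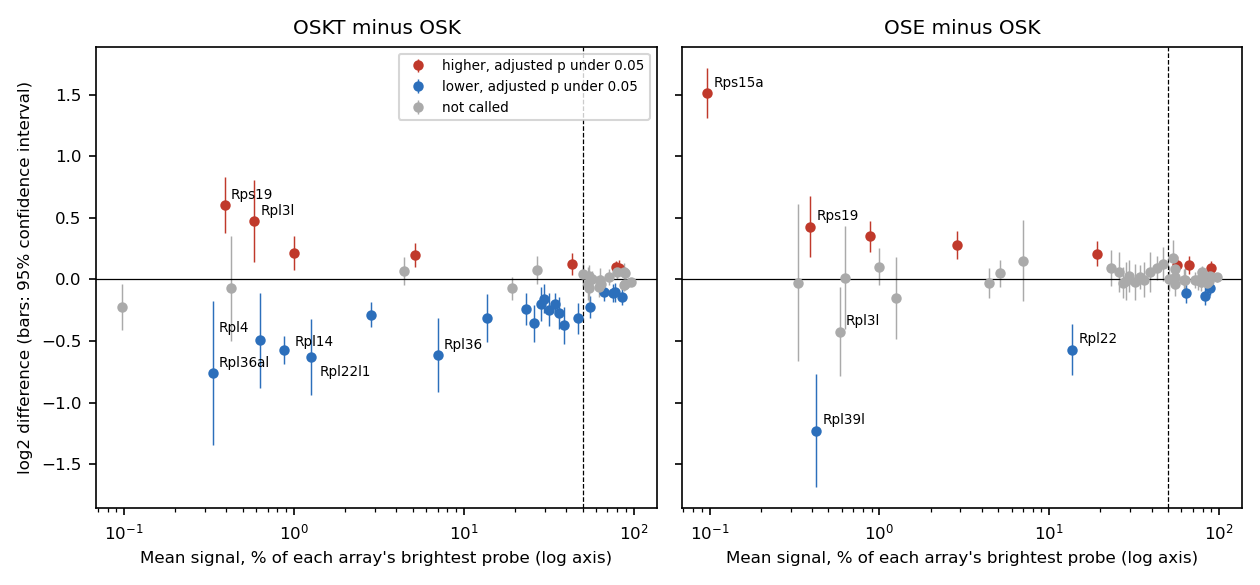
Log2 difference of each of the 48 genes (points, with 95% confidence intervals) against its mean signal as a percentage of the brightest probe on a log axis, for OSKT minus OSK (left) and OSE minus OSK (right), with a dashed line at 50%. In OSKT minus OSK, 21 genes are called lower and 7 higher, and in OSE minus OSK 5 are called lower and 8 higher.

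Rpl14 and Rpl36, both of the large subunit, fell in OSKT clones by the largest log2 differences among core genes called lower, with Rpl4 next. Rpl14 read 8.76, 8.97 and 9.08 (lowest, median and highest normalized log2 signal) in OSKT clones, against 9.21, 9.54 and 9.74 in OSK clones. Every OSKT clone was below every OSK clone, which held for 1 member and for 0.541% of all features in this direction. The log2 difference was -0.57 (1.49-fold lower, SE 0.06, adjusted p = 2.21e-08 in limma). Among clones 1 to 4 alone the difference was -0.52, and among the later clones it was -0.60. Rpl36 read 11.15, 11.84 and 12.40 in OSKT clones, against 11.67, 12.38 and 13.15 in OSK clones. The ranges overlapped, and all 11 OSKT clones lay below the OSK mean (log2 difference -0.62, adjusted p = 0.00148, and 0.0564 with near-identical arrays averaged).

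Rpl5, which with Rpl11 and the 5S rRNA forms the particle that binds Mdm2, read 14.09, 14.54 and 14.78 in OSKT clones, against 14.56, 14.79 and 15.21 in OSK clones. All 11 OSKT clones lay below the OSK mean (log2 difference -0.37, adjusted p = 0.000164). Its partner Rpl11 did not pass the test (log2 difference 0.02, adjusted p = 0.64). Rps27, a zinc finger protein of the small subunit, read 14.28, 14.82 and 15.01 in OSKT clones, against 14.89, 15.07 and 15.35 in OSK clones, and 11 of 11 lay below the OSK mean (log2 difference -0.32, adjusted p = 0.000157). Rplp0, the base of the ribosomal stalk that recruits elongation factors, read 10.61, 10.75 and 10.96 in OSKT clones, against 10.91, 11.03 and 11.24 in OSK clones. Its log2 difference was -0.29 (adjusted p = 5.58e-05), and -0.19 within clones 1 to 4, where it did not pass (adjusted p = 0.0703). Rps3a1, a small subunit protein near the exit of the mRNA channel, fell by 0.24 on the log2 scale (adjusted p = 0.00444), but did not pass within clones 5 to 11 (log2 difference -0.16).

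The genes that rose in OSKT clones were few. Rps19, whose human counterpart is mutated in Diamond-Blackfan anaemia, read 8.34, 8.82 and 9.34 in OSKT clones, against 7.58, 8.30 and 8.54 in OSK clones. All 11 OSKT clones exceeded the OSK mean, with overlapping ranges (log2 difference 0.60, adjusted p = 7.58e-05). Among clones 1 to 4 alone the log2 difference was 0.12 and did not pass (adjusted p = 0.33). Among the later clones it was 0.88 (adjusted p = 4.5e-05). Whether these values differ was not tested. Rpl7, a protein of the large subunit, rose by 0.12 (adjusted p = 0.0226), and by 0.10 with near-identical arrays averaged, where it did not pass. Rps9, whose yeast counterpart bears on the accuracy of decoding, rose by 0.10 on its brighter probe (adjusted p = 0.00148) and fell by 0.16 on its second probe (adjusted p = 0.0127), so its direction is not settled. Rps19bp1 rose by 0.21 (adjusted p = 0.0139), but passed neither within clones 1 to 4 nor within clones 5 to 11.

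**Figure D3:**
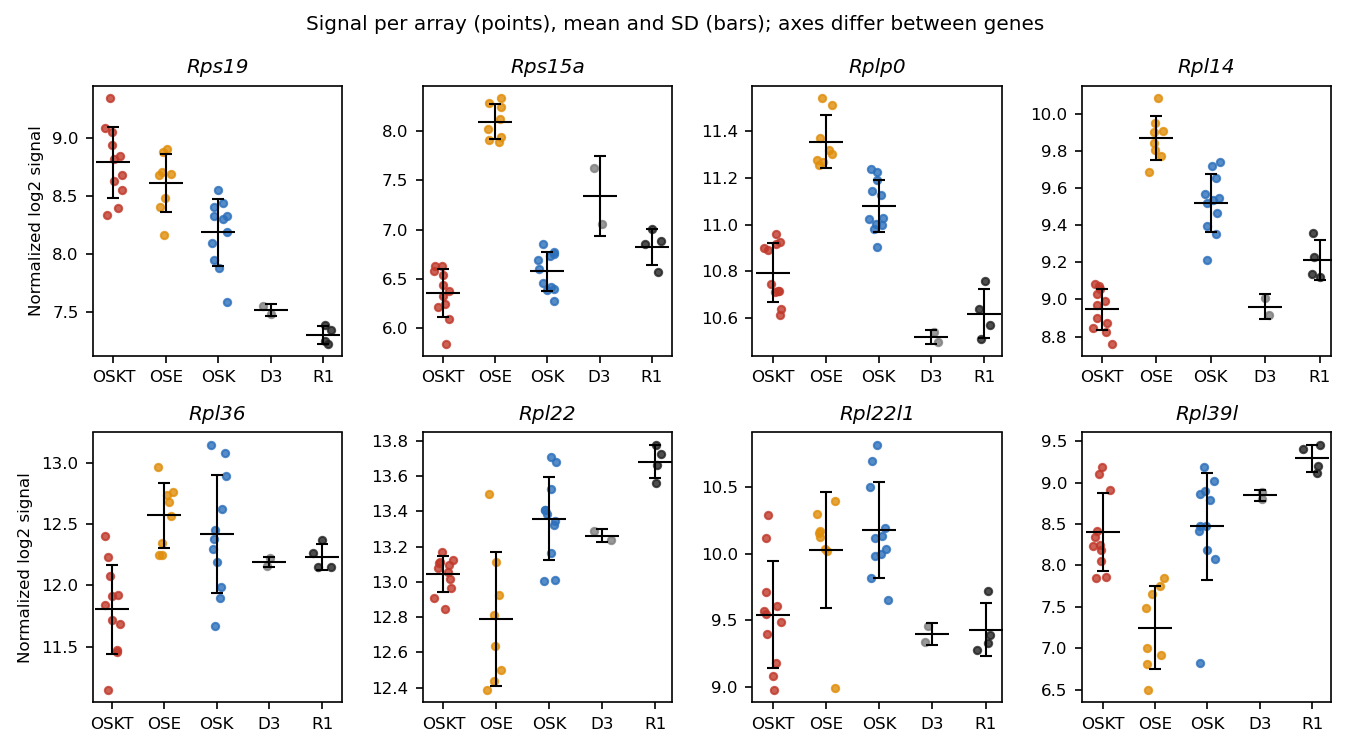
Normalized log2 signal of 8 ribosomal protein genes on each of the 36 arrays (points), with the mean and SD of each group (bars), on axes that differ between genes. Rpl14 and Rpl36 are lower in OSKT than in OSK clones, Rps15a stands above 7.8 in OSE clones alone, and Rpl39l is lowest in OSE clones.

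OSE was compared with OSK, which asks what changed where Esrrb stood in place of Klf4. The 2 sets also differed in signal of the Y-linked gene Eif2s3y, above background in 8 of 8 OSE and 1 of 11 OSK clones. Fewer members passed than features in general. In OSE clones 8 of 48 rose and 5 fell (median log2 difference 0.02), where 23.2% of all features rose and 22.6% fell (45.8% in either direction). With a common median 10 rose and 2 fell, where 44.8% of all features were called. Both OSE and OSKT were set against the same OSK arrays, so the 2 comparisons are not independent. Of the 20 dimmer core genes 5 were higher and 1 lower.

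The probe of Rps15a, a protein of the small subunit, set OSE clones apart. Its mean signal was 0.097% of each array's brightest probe, and how much of the gene's mRNA it reads was not checked. A value under background is therefore not taken as absence of the mRNA. Its signal was 7.89, 8.07 and 8.33 in OSE clones, against 6.28, 6.60 and 6.86 in OSK clones, with no overlap. The probe was above background in 8 of 8 OSE clones and in 0 of 11 OSK, 0 of 11 OSKT, 2 of 2 D3 and 2 of 4 R1 samples. Against the detection limit of the OSK arrays it was at least 2.19-fold higher in OSE (fitted log2 difference 1.51, adjusted p = 2.17e-14), with 8 of 8 clones above the mean of OSK. The difference passed within clones 1 to 4 (1.43) and within clones 5 to 8 of OSE against clones 5 to 11 of OSK (1.57). Beside it, signal of Eif2s3y, a gene of the Y chromosome, passed background in 8 of 8 OSE, 0 of 11 OSKT, 1 of 11 OSK, 2 of 2 D3 and 4 of 4 R1 samples, and a part of the cells' sex or origin in the Rps15a signal was not tested.

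Rplp0 read 11.26, 11.31 and 11.54 in OSE clones, against 10.91, 11.03 and 11.24 in OSK clones. The groups did not overlap, which held for 2 members and 4.09% of all features in this direction, and for 0 members and 4.02% of all features in the other (log2 difference 0.28, adjusted p = 0.000106). Rpl14 read 9.69, 9.87 and 10.08 in OSE clones, against 9.21, 9.54 and 9.74 in OSK clones, and 8 of 8 were above the OSK mean (log2 difference 0.35, adjusted p = 2.34e-05). Rps19 rose by 0.43 (adjusted p = 0.00374), but not within clones 5 and above, where the log2 difference was 0.39 (adjusted p = 0.061). Rpl13a, known for silencing interferon-induced transcripts in human monocytes, rose by 0.21 (adjusted p = 0.000968).

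The largest fall of a core gene was that of Rpl22, known for its part in T cell development in mouse. It read 12.39, 12.72 and 13.50 in OSE clones, against 13.01, 13.38 and 13.71 in OSK clones. The ranges overlapped, and 7 of 8 OSE clones lay below the OSK mean (log2 difference -0.57, adjusted p = 2.73e-05). The 1 above it was clone 8.

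Against R1 ES cells the 3 iPS sets share the same 4 control arrays, so their values are given side by side. OSKT had 6 genes higher and 16 lower (background 26.4% and 27.9%), OSE 10 higher and 7 lower (28.7% and 29.9%), and OSK 8 higher and 10 lower (25.8% and 28%). In either direction 22, 17 and 18 of 48 members were called, where 54.3%, 58.7% and 53.8% of all features were. The median log2 differences were -0.07, 0.01 and 0.02 and were -0.18, -0.06 and -0.11 with a common median, a scaling that moved the median of all features by -0.10, -0.05 and -0.12. With that scaling 1 rose and 22 fell in OSKT, 6 rose and 13 fell in OSE, and 3 rose and 18 fell in OSK clones. Of all features 54.4%, 56.7% and 54.6% were called with it. No direction of the whole group against R1 is therefore given. With near-identical arrays averaged, where R1 counts as 1 sample, 3, 9 and 6 members were called, where 23.3%, 27.7% and 22.7% of all features were.

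Rps19 differed most among the core genes from R1. It read 8.34, 8.82 and 9.34 (lowest, median and highest) in OSKT, 8.16, 8.68 and 8.90 in OSE, and 7.58, 8.30 and 8.54 in OSK clones, against 7.38, 7.22, 7.25 and 7.34 in R1. All 30 iPS clones exceeded all R1 arrays. The log2 differences were 1.49 for OSKT (2.80-fold, adjusted p = 2.13e-10), 1.31 for OSE (2.48-fold, adjusted p = 9.05e-09) and 0.88 for OSK (1.84-fold, adjusted p = 6.63e-06). Over the settings they ran from 1.31 to 2.13, 1.12 to 1.91 and 0.76 to 1.32, so that the folds depend on the processing. In R1 the probe read 87.5 to 102.4 intensity units, not far above the background limits of those arrays (52.4 to 56.3 units). D3 cells read 7.48 and 7.55, which did not pass against R1. Groups without overlap held for 2 members higher and 6 lower in OSKT (17.8% and 19.5% of all features), 8 and 3 in OSE (20.1% and 22.7%), and 4 and 4 in OSK (17.1% and 19.9%).

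Other members above R1 were Rplp0, Rps3a1 and Rpl37a, a zinc-binding protein of the large subunit. Rplp0 read 10.61, 10.75 and 10.96 in OSKT, 11.26, 11.31 and 11.54 in OSE and 10.91, 11.03 and 11.24 in OSK clones, against 10.57, 10.51, 10.76 and 10.64 in R1. OSE and OSK clones lay above R1 without overlap (log2 differences 0.74 and 0.46), while OSKT overlapped it (0.18, and -0.014 with a common median). Rps3a1 read 13.46, 13.84 and 14.16 in OSKT, 14.00, 14.21 and 14.36 in OSE and 13.66, 14.11 and 14.22 in OSK clones, against 13.61, 13.64, 13.63 and 13.69 in R1. The OSE clones alone did not overlap R1, and the log2 differences were 0.21, 0.54 and 0.45. That of OSKT (adjusted p = 0.049) was lost in 10 of 19 settings, among them a common median (0.077) and leaving out any 1 of the 4 R1 replicates. Rpl37a had log2 differences of 0.17 in OSKT, 0.39 in OSE and 0.37 in OSK clones, all 3 called. Rpl14 was below R1 in OSKT (-0.27) and above it in OSE (0.66) and OSK (0.31) clones, and each passed.

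Rpl22 was below R1 in all 3 sets. It read 12.85, 13.08 and 13.17 in OSKT, 12.39, 12.72 and 13.50 in OSE and 13.01, 13.38 and 13.71 in OSK clones, against 13.78, 13.72, 13.56 and 13.66 in R1. The OSKT and OSE clones all lay below R1, and OSK clones overlapped it. The log2 differences were -0.64 (adjusted p = 8.17e-05), -0.89 (adjusted p = 8.26e-07) and -0.32 (adjusted p = 0.0351). That of OSK was lost in 7 of 18 settings, among them near-identical arrays averaged, leaving out R1 replicate 1, 2 or 4, and the fibroblast covariate (-0.066, adjusted p = 0.626). The large subunit gene Rpl34 was lower by about the same amount in each set (-0.28, -0.32 and -0.32), with every clone below the R1 mean. Rpl8, which contacts the peptidyl transferase centre, had log2 differences of -0.25, -0.14 and -0.26, and all 3 passed. Rps3, a small subunit protein at the entry of the mRNA channel, passed in OSKT (-0.30) and OSK (-0.26) but not in OSE clones (-0.09, adjusted p = 0.434).

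No member passed between D3 and R1 cells. Of the 48 members 0 were called, where 4.66% of all features were higher and 5.07% lower (9.73% in either direction), and 6 had an unadjusted p under 0.05 in limma. Fits of the D3 and R1 arrays alone and with array weights each called 6 (2 higher and 4 lower), where 31.8% and 33.8% of all features were called in those fits. Without overlap were 3 members higher and 6 lower, where 27% and 22.1% of all features were. The smallest p was that of Rps15a, with 7.62 and 7.05 in D3, against 6.57, 6.88, 6.85 and 7.00 in R1 (log2 difference 0.51, adjusted p = 0.0804).

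Some paralogs replace a core protein in certain tissues. Their values are given here, and those of tested partners here or in other paragraphs. Rpl3, the partner of Rpl3l, was not among the 52 symbols of the rule. Rpl22l1, which the Rpl22 protein holds down in mouse cells, read 8.98, 9.55 and 10.29 in OSKT, 8.99, 10.14 and 10.40 in OSE and 9.66, 10.12 and 10.82 in OSK clones, against 9.39, 9.33, 9.72 and 9.27 in R1. Against R1 it was higher in OSE (log2 difference 0.60, adjusted p = 0.0186) and OSK clones (0.75, adjusted p = 0.0026) and did not pass in OSKT clones, while Rpl22 was lower in all 3 sets. These calls of Rpl22l1 were lost in 4 of 19 settings for OSE and in 1 of 18 for OSK clones. In OSKT clones Rpl22l1 was lower than in OSK clones (log2 difference -0.63, adjusted p = 0.00141), as was Rpl22 (-0.31, adjusted p = 0.00938). The call of Rpl22 was lost among clones 1 to 4 alone (-0.073, adjusted p = 0.661) and with a common median (adjusted p = 0.0795), and among the later clones the difference was -0.45. Neither passed with near-identical arrays averaged (adjusted p = 0.0757 and 0.0671). Over the 36 arrays, which share groups and near-identical clones, the correlation of the pair was -0.13. It was -0.35 for Rps27l and Rps27, -0.19 for Rpl7l1 and Rpl7, 0.08 for Rpl36al and Rpl36a and 0.30 for Rpl39l and Rpl39.

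Rpl39l, a paralog of the exit-tunnel protein Rpl39, was the member with the largest difference. It read 7.85, 8.25 and 9.19 in OSKT, 6.49, 7.25 and 7.84 in OSE and 6.83, 8.48 and 9.18 in OSK clones, against 9.41, 9.20, 9.12 and 9.45 in R1. Every OSE clone lay below every R1 array, and the probe was above background in 5 of 8 OSE and 10 of 11 OSK clones. OSE was lower than R1 (log2 difference -2.05, adjusted p = 3.68e-07, and between -3.30 and -1.82 over the settings, so that the fold depends on the treatment of background) and lower than OSK by 1.23 on the log2 scale (adjusted p = 3.63e-05), or by 0.80 within clones 5 and above, where it did not pass. OSKT (-0.90) and OSK (-0.82) were lower than R1 too. The X-linked partner Rpl39 had log2 differences of 0.08, 0.01 and 0.12 in OSKT, OSE and OSK clones against R1, of which the last was called.

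Rpl3l, the paralog of Rpl3 in heart and skeletal muscle, read 8.60, 9.41 and 9.59 in OSKT, 7.60, 8.22 and 9.28 in OSE and 8.23, 8.80 and 9.09 in OSK clones. It was higher in OSKT than in OSK clones (log2 difference 0.47, adjusted p = 0.0231), but not with near-identical arrays averaged (0.34, adjusted p = 0.364). In OSE it was lower than in R1 (-0.93, adjusted p = 0.000948), and with the fibroblast signal as a covariate the difference was 0.08 (adjusted p = 0.775). Rpl7l1, a relative of Rpl7 and of a yeast factor of large subunit assembly, read 11.68, 11.89 and 12.05 in OSKT, 11.51, 11.76 and 11.85 in OSE and 11.46, 11.66 and 11.82 in OSK clones, against 12.25, 12.15, 12.18 and 12.18 in R1. All 30 clones lay below R1 (-0.33, -0.48 and -0.53, all called), and Rpl7 itself passed in none of the 3 comparisons with R1.

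Rpl36al, a paralog of Rpl36a, fell by 0.76 in OSKT against OSK clones (adjusted p = 0.0376). It did not pass with near-identical arrays averaged (log2 difference -0.44, adjusted p = 0.555). Rps27l, a p53 target in human cells, passed in none of the comparisons.

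Of the 3 tested X-linked members, Rpl36a rose in OSKT against OSK clones by 0.09 (adjusted p = 0.0249), with means of 15.93 ± 0.04 in OSKT and 15.84 ± 0.07 among OSK clones (± SD over 11 clones each). The difference did not pass among clones 1 to 4 alone (0.05) and was -0.00199 in the authors' scaled table. Against R1 Rpl36a rose by 0.21 in OSKT clones, without overlap. In OSE against OSK clones, Rpl36a (-0.13) and Rpl39 (-0.11) fell, but passed neither with a common median (adjusted p = 0.0736 and 0.133) nor among clones 1 to 4 alone (adjusted p = 0.108 and 0.156). Rpl39 did not pass with near-identical arrays averaged either (adjusted p = 0.065). The probes of Rpl36a and Rpl39 read at 82.3% and 64.1% of the brightest probe, in the upper part of the range. The part of that limit in these small differences was not tested. Rpl10, which joins the large subunit late in its assembly, passed in no comparison. Y-linked Eif2s3y passed background in 8 of 8 OSE, 1 of 11 OSK, 0 of 11 OSKT and 4 of 4 R1 samples. A part of the cells' sex or origin in the values of the X-linked members was not tested.

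Per array, the median of the 20 dimmer core genes against the R1 mean summarises the spread of the clones. It was -0.40, -0.12 and 0.10 in OSKT, 0.14, 0.20 and 0.39 in OSE, -0.02, 0.07 and 0.41 in OSK, -0.01 and 0.01 in D3 and -0.05 to 0.04 in R1 samples. OSKT clone 4 was the lowest, with the highest 75th percentile of the signal (1057 intensity units), and OSK clone 6 and OSE clone 8 were the highest, with 374.1 and 337.3 units. Without OSKT clone 4, 2 of the 20 were higher and 13 lower in OSKT than in OSK clones, where 36.3% of all features were called. Within groups the genes that followed the median of the other 19 most closely were Rps27 (correlation 0.74), Rpl26 (0.71), Rpl36 (0.65) and Rpl32 (0.65) over 36 arrays that share the array's overall signal. Rps19 (-0.12), Rpl7 (-0.09), Rps15a (-0.05) and Rps15 (-0.00403) had correlations below 0.

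**Figure D4:**
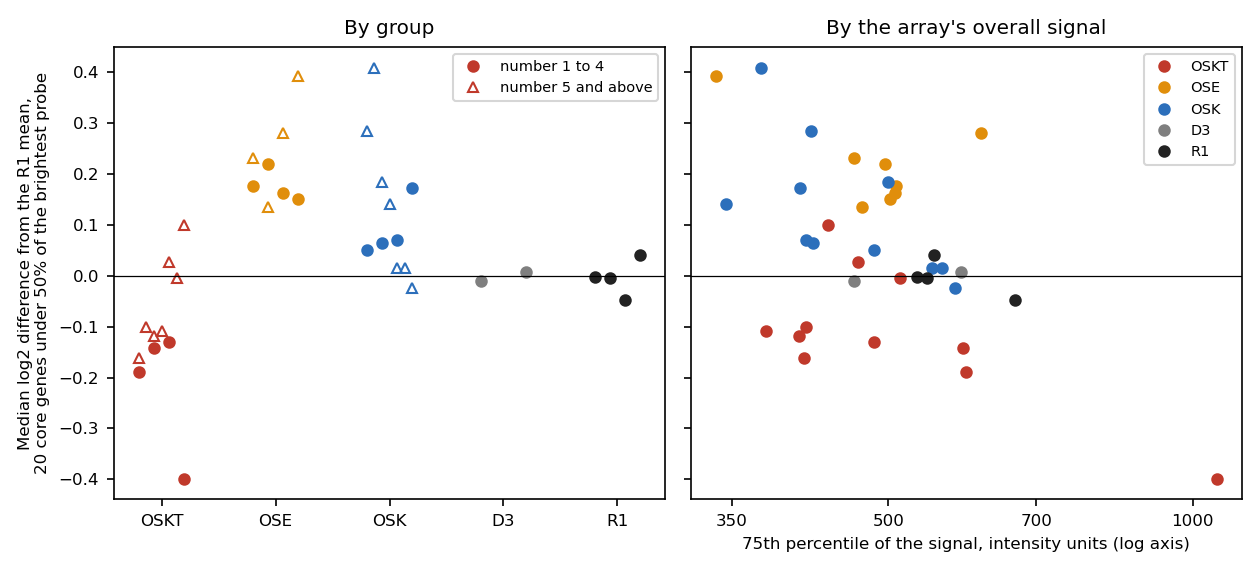
Median log2 difference from the R1 mean over the 20 core genes under 50% of the brightest probe, for each array, by group with clones or replicates 1 to 4 as filled circles and later clones as open triangles (left), and against the array's 75th percentile in intensity units on a log axis (right). OSKT arrays run between -0.40 and 0.10, OSE arrays between 0.14 and 0.39, and OSK arrays between -0.02 and 0.41.

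Genes around the ribosome are given for comparison. Fau, whose protein is processed to the small subunit protein eS30, was the 1 ribosomal protein gene with another kind of symbol that was tested, and rose by 0.16 in OSKT against OSK clones (adjusted p = 0.0125). Of 12 tested genes of other TOP mRNAs, 2 rose and 3 fell in OSKT against OSK clones, where 35.5% of all features were called. Those that fell were Hnrnpa1, a splicing factor (log2 difference -0.52), Eif4b, an initiation factor (-0.26), and Nap1l1, a histone chaperone (-0.15). In OSE against OSK clones 2 rose, among them Nap1l1 (0.61), and 0 fell, where 45.8% of all features were called. An unadjusted p under 0.05 was found for 3. Of 10 tested genes of mTOR signalling and TOP control, 2 rose and 0 fell in OSKT against OSK clones, where 35.5% of all features were called. They were the cap-binding protein gene Eif4e (0.24) and the mTOR inhibitor Deptor (0.28). In OSE against OSK clones 2 rose and 2 fell (median log2 difference -0.02), where 45.8% of all features were called. Mtor itself was among those that fell (-0.41, adjusted p = 8.42e-06 in limma).

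Of 34 tested ribosome assembly factors, 23 rose and 0 fell in OSE against OSK clones (median log2 difference 0.25), where 23.2% of all features rose and 22.6% fell, and none of the 34 had a negative difference. Beside them, 8 of 11 tested fibroblast markers rose (median 0.73), and their part in this was not tested. Nip7, a factor of rRNA processing, read 12.06 in OSE and 11.22 in OSK clones on average (log2 difference 0.84, adjusted p = 7.1e-15). Mrto4, a nucleolar relative of Rplp0, rose by 0.64, Nob1, the nuclease that completes the small subunit rRNA, by 0.64 and Gar1, of H/ACA particles, by 0.42. In OSKT against OSK clones 14 rose and 5 fell (median 0.03), where 19.5% of all features rose and 16% fell. Nop56, of box C/D particles (0.32), and Sbds, a factor of late large subunit maturation (0.20), were among the higher. Against R1, 7 rose and 15 fell in OSKT, 11 rose and 7 fell in OSE and 4 rose and 17 fell in OSK clones. In either direction 64.7%, 52.9% and 61.8% of the 34 were called, where 54.3%, 58.7% and 53.8% of all features were. Nop56 fell by 0.85, 0.92 and 1.18 and its partner Nop58 by 0.75, 0.81 and 0.96 in the 3 sets. In D3 against R1 6 rose, Gar1 among them (0.37), and 0 fell, where 4.66% of all features rose and 5.07% fell.

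Of 12 tested genes of RNA polymerase I, 3 rose and 2 fell in OSKT and 6 rose and 2 fell in OSE against OSK clones. Of all features 35.5% and 45.8% were called in these comparisons. Against R1, 4 rose and 5 fell in OSKT, 5 and 5 in OSE and 4 and 5 in OSK clones. Of all features 54.3%, 58.7% and 53.8% were called there. The largest rise was that of Twistnb, a subunit of the polymerase, by 1.97 in OSKT, 2.05 in OSE and 2.10 in OSK clones. The lowest differences in the list were -0.82, -0.80 and -0.93. Mitochondrial ribosomal proteins, which translate the mitochondrial genome, were mostly called higher where they were called in OSKT against OSK clones, with 30 that rose and 4 that fell of 70 tested (median log2 difference 0.11), where 19.5% of all features rose and 16% fell. In OSE against OSK clones 19 rose and 15 fell, where 45.8% of all features were called. Against R1 27 rose and 20 fell in OSKT, 18 rose and 23 fell in OSE and 18 rose and 26 fell in OSK clones, where 54.3%, 58.7% and 53.8% of all features were called.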

How the data were processed

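Total RNA of 30 iPS clones and 6 ES cell samples was labelled as biotin cRNA, per the labels' protocols, hybridised to 36 arrays and processed in BeadStudio, per the submitters' processing notes. The authors deposited a table of unscaled intensity values, of which 25.4% to 29.6% of measured probes lay below 0 per array, as values do after background subtraction, and a scaled intensity table, used as an alternative. Of 24613 probes, 5893 held only values between -5.5 and 15.5 on every array and were left out as placeholders. Gene symbols came from the supplied array annotation, and all 52 symbols matched the RefSeq table. Whether a probe also reads a processed pseudogene or paralog was not checked. Rplp1, Rplp2 and Rps4x were not analysed here.

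In limma 3.58.1 (R 4.3.3), normexp with the saddle method and an offset of 16 was applied to the intensities, followed by log2 and quantile normalization. A probe was above background on an array past the 99th percentile of a normal distribution with the spread of its negative signals (45.2 to 90.8 units). The filter required this on 4 or more arrays, and each gene was read from its highest-mean probe. The 36 arrays entered 1 linear model with a mean for each group, using lmFit and eBayes (trend), with 2-sided p-values adjusted by Benjamini-Hochberg over 10533 features. A fold from a group with no array, or at most 50% of its arrays, above background was computed against each array's detection limit. Where the labels number clones or replicates alike, same-numbered deviations correlated by 0.01 to 0.63 in OSKT and OSK, -0.26 to 0.59 in OSE and OSK and -0.07 to 0.09 in iPS sets and R1, so the numbers were not used to pair samples.

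The members, the lists and the split of clones by number were chosen with earlier results of these data known. Genes named were the 4 largest and 4 smallest called differences per comparison, X-linked members, stalk proteins and paralogs with tested partners. Rpl5, Rpl11, the 5 least and 5 most variable members and up to 4 genes of each other list were named too. Others named (Rpl4, Rpl8, Rpl13a, Rpl26, Rpl32, Rpl37a, Rps3 and Rps15) were chosen after their values were seen. So were 5 settings: the fibroblast and 75th percentile covariates and the fits without OSKT clone 4, OSE clone 8 or all clones numbered 8.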

Additional observations from a re-analysis of the deposited data

Results flagged for a closer look

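Of 54 groups of 4 to 10 arrays examined for 27 named genes, 4 held an array that stood apart by Dixon's criterion, which chance gives in about 1 in 20 groups. Rpl22l1 read 8.99 in OSE clone 8, where the other OSE clones read 10.02 to 10.40. Rpl36al read 6.51 in the same clone, against 8.34 to 9.00 in the others. Rpl41 read 16.09 in OSE clone 4, against 16.06 to 16.07 in the others. Rpl5 read 14.45 in R1 replicate 3, where the other R1 replicates read 14.78 to 14.82.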

How the results depend on the processing

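Of 64 called results of named genes, 19 kept their direction and call in all settings run; of their 1144 alternative values 999 kept both, 134 lost the call and 11 turned, and of 1781 for the 98 results not called, 113 became calls and 2 turned. The fall of Rpl14 in OSKT against OSK clones was called in every setting run. With near-identical arrays averaged, members called numbered 10 (OSKT minus OSK), 3 (OSKT minus R1), 9 (OSE minus R1) and 6 (OSK minus R1), with fewer samples. A common median gave 15 for OSKT minus OSK, clones 5 and above 8 for OSE minus OSK, and array weights 29 for OSK minus R1. Of all features 30.7%, 34.9% and 64.9% were called there. For D3 minus R1, array weights gave 6, the 2 groups alone 6 and the fibroblast covariate 4, where 33.8%, 31.8% and 22.3% of all features were called. Leaving out 1 replicate gave 0 to 1. Medians of the 48 genes with a common median were -0.18 (OSKT minus R1), 0.060 (OSE minus OSK), -0.062 (OSE minus R1), -0.11 (OSK minus R1) and -0.041 (D3 minus R1). In the authors' scaled table they were -0.15 (OSKT minus OSK), -0.083 (OSE minus OSK), 0.051 (OSE minus R1), 0.13 (OSK minus R1) and 0.043 (D3 minus R1). With the fibroblast covariate they were 0.050 (OSE minus OSK), 0.067 (OSE minus R1) and -0.028 (D3 minus R1), and without 1 R1 replicate 0.00893 to 0.042 for OSE minus R1 and 0.00653 to 0.044 for OSK minus R1; for D3 minus R1 the range without 1 array was -0.012 to 0.00206. Log2 differences that turned in the authors' table were those of Rpl13 (0.067 in OSKT minus R1, -0.00138 in OSE minus OSK, 0.10 in OSK minus R1), Rpl36a (-0.00199) and Rps9 (-0.000864) in OSKT minus OSK, and Rpl38 in OSK minus R1 (0.22). With a common median Rplp0 (-0.014) and Rps9 (-0.00568) turned in OSKT minus R1, and Rpl36a (-0.010) and Rpl39 (-0.060) in OSK minus R1. With the fibroblast covariate Rpl3l turned in OSKT minus R1 (0.45) and OSE minus R1 (0.076), and on its second probe Rps9 in OSKT minus OSK (-0.16). The cause was not tested. With the replicate number as a block, 7 rose and 22 fell in OSKT minus OSK and 9 and 5 in OSE minus OSK. Of all features 41.0% and 46.5% were called there. In that fit 4 rose and 21 fell in OSKT minus R1, 12 and 7 in OSE minus R1 and 9 and 11 in OSK minus R1. Of all features 59.2%, 63.6% and 59.1% were called in these. In D3 minus R1 0 members were called, where 11.0% of all features were. The numbers were not taken to pair the samples, since not every pair correlated above 0.1, though 9 of 11 pairs of OSKT and OSK did. Signal over background limits Rps15a, Rpl39l and Rpl36al, and the folds of Rps19 against R1.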

Other observations

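The clone numbered 8 had the lowest value of its set for Rpl36al and for Rpl4 in all 3 iPS sets. Rpl36al read 5.54 in OSKT clone 8, 6.51 in OSE clone 8 and 6.75 in OSK clone 8, the other clones between 7.19 and 8.72 in OSKT, 8.34 and 9.00 in OSE and 7.98 and 8.89 in OSK. Rpl4 read 8.15, 7.48 and 7.62 in those clones, where the medians were 8.61, 9.26 and 9.14. The labels do not say what clones of 1 number share. Without these 3 clones Rpl36al was 0.81 above R1 in OSE and 0.74 above it in OSK clones on the log2 scale. With them neither difference passed. The clones were left out after their low values were seen, which raises the means by construction, so no test is drawn from these values.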
